A study of Mus musculus with 12 samples.

Results

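The genes described here are Ppig, Hmgn5, Ankrd12, Dek, Nemf, Ralyl, Prdm8, Ccdc34 and Spata9, which make up 9 of the 24020 genes counted in mouse hypothalamus. They were picked by name because their counts rise with the number of mutant Wfs1 alleles in these libraries, so their differences between genotypes are what chose them and are given as a description with no test. The product of Wfs1 is wolframin, which sits in the membrane of the endoplasmic reticulum and whose loss causes Wolfram syndrome. RNA-seq libraries came from the hypothalamus of mice of the Wfs1tm1Koks line in 3 genotypes, with 4 wild-type individuals, 4 heterozygous individuals with 1 mutant allele and 4 homozygous individuals with 2. No treatment is given, all 3 groups carry the same line name, and the labels used here give neither age nor sex nor which part of Wfs1 the allele removes.

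The working name of the set is nuclear and RNA-binding genes. This holds for most of the 9 but not for all of them. Nemf is known mainly from the cytoplasm, and for Ccdc34 and Spata9 no RNA-binding or chromatin role is taken as established here. The 9 genes are also not the first 9 of the table. By their log2 slope per mutant allele they rank from 3 to 40 of the 10737 genes tested, with Ppig (slope 1.19) at the upper end and Ankrd12 (slope 0.79) at the lower end. Pnn, an RS-domain protein of nuclear speckles that is not a member, stands at 41 with a slope of 0.79, just below Ankrd12.

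The products of 7 of these genes act in chromatin, RNA handling or translation. Hmgn5 belongs to the HMGN family, which binds nucleosomes and competes with linker histone H1, and it carries a long acidic tail. Dek is a chromatin protein and histone chaperone. Ankrd12 is an ankyrin-repeat protein that binds p160 nuclear receptor coactivators and recruits histone deacetylases, and Prdm8 is a PR-domain zinc-finger repressor with roles in neurons. Ppig, cyclophilin G, is a peptidyl-prolyl isomerase with an arginine-serine tail that lies in nuclear speckles and binds the large subunit of RNA polymerase II. Ralyl is an RNA-recognition-motif protein related to RALY and hnRNP C and is expressed in brain. Nemf binds the tRNA-blocked large ribosomal subunit after a stall and recruits the ubiquitin ligase Listerin (Ltn1). Ccdc34 is a coiled-coil protein linked to the sperm flagellum, and Spata9 is named for spermatogenesis.

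The coding sequences of most of these genes share one feature, a high share of adenine. Adenine was not itself a criterion of the choice. Among the other genes, however, those called higher in homozygous libraries were more often rich in adenine, as given further below. A choice of rising genes therefore favours this feature. The stretches below are the 60-base windows with the most adenine in the coding sequences of 6 of the genes, in GENCODE M21, with adenine in capitals. The first 5 come from adenine-rich genes and Prdm8 is shown for contrast.
Ppig: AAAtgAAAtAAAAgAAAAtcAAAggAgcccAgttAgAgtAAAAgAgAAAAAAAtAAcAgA
Hmgn5: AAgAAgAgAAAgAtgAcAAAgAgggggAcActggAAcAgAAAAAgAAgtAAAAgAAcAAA
Ankrd12: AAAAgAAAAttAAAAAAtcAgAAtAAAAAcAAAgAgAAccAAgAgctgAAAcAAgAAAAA
Dek: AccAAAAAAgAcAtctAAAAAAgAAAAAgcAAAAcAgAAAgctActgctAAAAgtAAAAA
Ccdc34: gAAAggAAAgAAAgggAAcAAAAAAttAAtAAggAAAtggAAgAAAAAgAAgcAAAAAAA
Prdm8: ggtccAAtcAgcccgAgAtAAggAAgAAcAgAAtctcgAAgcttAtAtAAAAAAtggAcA
Counted from 1 at the first base of the start codon, the windows span bases 1158 to 1217 in Ppig, 587 to 646 in Hmgn5, 1399 to 1458 in Ankrd12, 780 to 839 in Dek, 589 to 648 in Ccdc34 and 273 to 332 in Prdm8. They hold 37, 35, 41, 38, 40 and 26 adenines, in that order.

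Depth and quality were alike for all genes of a library and are given once. Total counts were 979394 to 2330872 per library. Wfs1 was at 114, 138, 163 and 167 CPM (counts scaled to library size) in wild-type, at 81.8 to 103 CPM in heterozygous and at 14.8 to 20.1 CPM in homozygous libraries, so its level followed the labels. Rn45s, the precursor of the large ribosomal RNAs, took 0.1002% to 0.202% of counts in wild-type, 0.0349% to 0.0811% in heterozygous and 0.00776% to 0.0337% in homozygous libraries. Homozygous replicates 4 (0.00861%) and 5 (0.00776%) were far below homozygous replicates 1 (0.0302%) and 2 (0.0337%), and heterozygous replicate 2 (0.0811%) was above the other heterozygous libraries. The main results on the 9 genes are therefore given with and without these 3 libraries. Of 15 hypothalamus markers all were counted in some library, and their summed level was 987 to 1397 CPM in wild-type, 1043 to 1609 in heterozygous and 1015 to 1393 in homozygous libraries. Most of that sum was Pmch (880 CPM in wild-type and 1031 in homozygous libraries on average), and 3 of 11 tested markers, Trh (-1.08), Hdc (-1.11) and Pomc (-1.12), were lower in homozygous libraries and 0 higher, with a median log2 fold change of -0.41. The summed levels of 14 telencephalon markers were 362 to 441, 432 to 506 and 490 to 685 CPM in the same order. For 12 thalamus markers they were 702 to 916, 820 to 1116 and 883 to 1231 CPM, and for 10 pituitary markers 519 to 955, 871 to 1332 and 1356 to 1565 CPM, with Gh, Prl and Pou1f1 at 0 in every library. The pituitary sum was mostly Chgb, which was higher in homozygous libraries (1.12), while Pomc, the other of 2 tested, was lower. Among cell types, 2 of 10 astrocyte markers were higher and 4 lower (Aldoc 0.80, Slc6a11 -1.08), 3 of 12 oligodendrocyte markers higher and 2 lower, and 0 of 9 tested endothelial and pericyte markers higher and 2 lower (Vtn -1.47, Pdgfrb -1.32), whose sum was 226 to 266 CPM in wild-type and 203 to 223 in homozygous libraries. Of 8 tested microglia markers 0 were called by edgeR. The part of these markers in the members' differences was not tested. In whole tissue, fewer cells of a type and less RNA per cell cannot be told apart.

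The chromatin genes were higher in every homozygous than in every wild-type library, with the heterozygous libraries mostly between. Values are TMM-scaled CPM, which compare libraries and not genes of different length. Hmgn5 was at 8.80, 14.3, 13.1 and 25.5 CPM in wild-type replicates 1, 2, 3 and 5, at 46.9, 24.6, 68.1 and 44.6 CPM in heterozygous replicates 1 to 4, and at 70.4, 58.4, 92.3 and 113 CPM in homozygous replicates 1, 2, 4 and 5. The homozygous mean was 5.41 times the wild-type mean, the highest ratio of the 9 genes, with a log2 fold change of 2.37 (SE 0.303, n = 4 per group). Heterozygous replicate 2 fell inside the wild-type range of Hmgn5, and heterozygous replicate 3 inside its homozygous range, so only wild-type and homozygous libraries were apart. Wild-type Hmgn5 rests on 12 to 41 reads per library.

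Dek was at 52.8, 58.0, 48.8 and 60.9 CPM in wild-type, at 111, 79.2, 98.2 and 96.5 CPM in heterozygous and at 137, 150.4, 240 and 247 CPM in homozygous libraries, in the same replicate order. Its 3 groups did not overlap, and the homozygous group split into replicates 1 and 2 and the higher replicates 4 and 5. Its homozygous to wild-type log2 fold change was 1.79 (SE 0.184). Ankrd12 was at 399, 340, 286 and 365 CPM in wild-type, at 607, 447, 768 and 685 CPM in heterozygous and at 852, 879, 1127 and 1333 CPM in homozygous libraries. Its groups were also apart, with the lowest heterozygous value in replicate 2, and its log2 fold change of 1.59 (SE 0.161) was the smallest of the 9 genes.

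Prdm8 had the fewest reads. It was at 5.87, 3.81, 2.91 and 4.35 CPM in wild-type, at 9.64, 8.34, 13.2 and 8.53 CPM in heterozygous and at 13.4, 16.2, 18.9 and 18.1 CPM in homozygous libraries. These values come from 4 to 8 reads per wild-type library and from 13 to 36 reads in the others. The groups did not overlap, and the log2 fold change was 1.93 (SE 0.321). Prdm8 passed the filter on low counts only through the heterozygous and homozygous libraries, since 0 of the 4 wild-type libraries reached the 6.80 CPM that the filter asks for. The other 8 genes reached it in all 12 libraries. Prdm8 lies on chromosome 5, as Wfs1 does, at a distance of 61.2 Mb.

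The genes of RNA handling followed the same order. Ppig was at 211, 180, 144 and 209 CPM in wild-type, at 398, 244, 550 and 488 CPM in heterozygous and at 729, 733, 989 and 1446 CPM in homozygous libraries. The groups were apart, heterozygous replicate 2 was the lowest of its group and homozygous replicate 5 stood well above the rest. The log2 fold change was 2.38 (SE 0.222), the largest of the 9. Ralyl was at 111, 96.1, 70.7 and 78.3 CPM in wild-type, at 198, 166, 104 and 155 CPM in heterozygous and at 215, 224, 401 and 469 CPM in homozygous libraries. Heterozygous replicate 3 lay inside the wild-type range of Ralyl, while all homozygous values were above all others. Its log2 fold change of 1.86 (SE 0.228) went with the widest homozygous spread of the 9 genes, a coefficient of variation of 39.0%.

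Nemf, the ribosome quality control factor, was at 69.7, 82.8, 67.8 and 69.6 CPM in wild-type, at 125, 89.7, 127 and 116 CPM in heterozygous and at 182, 185, 270.2 and 269 CPM in homozygous libraries. Its groups were apart, and homozygous replicates 4 and 5 were again the high pair. The log2 fold change was 1.64 (SE 0.161). The heterozygous difference from wild-type of Nemf was 40.1% of the homozygous one on the log2 scale, the smallest share of the 9.

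Ccdc34 differed from the others in its homozygous group. It was at 35.9, 39.0, 40.8 and 50.3 CPM in wild-type, at 98.3, 66.3, 128 and 94.5 CPM in heterozygous and at 169, 126, 125 and 131 CPM in homozygous libraries. Homozygous replicate 1 was the highest and replicates 4 and 5 lay close to replicate 2. Heterozygous replicate 3 overlapped the homozygous range. The log2 fold change was 1.72 (SE 0.185), and the heterozygous difference was 69.5% of it, the largest share of the 9. Spata9 was at 8.80, 7.61, 6.56 and 11.2 CPM in wild-type, at 18.6, 19.2, 27.1 and 26.3 CPM in heterozygous and at 27.5, 30.5, 37.9 and 55.3 CPM in homozygous libraries. Its groups were apart, and its log2 fold change was 2.07 (SE 0.273).

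All homozygous libraries were above all wild-type libraries for 9 of the 9 genes, against 11.8% of all genes tested. All heterozygous libraries were above all wild-type libraries for 7 of the 9, against 4.77% of all genes, the exceptions being Hmgn5 and Ralyl. The 3 genotypes were in order with no overlap for 6 of the 9, against 0.987% of all genes. In the fit across all genes the share called higher between homozygous and wild-type was 13.7%, and the share called higher for the slope on mutant alleles was 13.9%. The choice of the 9 fixes these counts, and nothing is read from them.

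**Figure D1:**
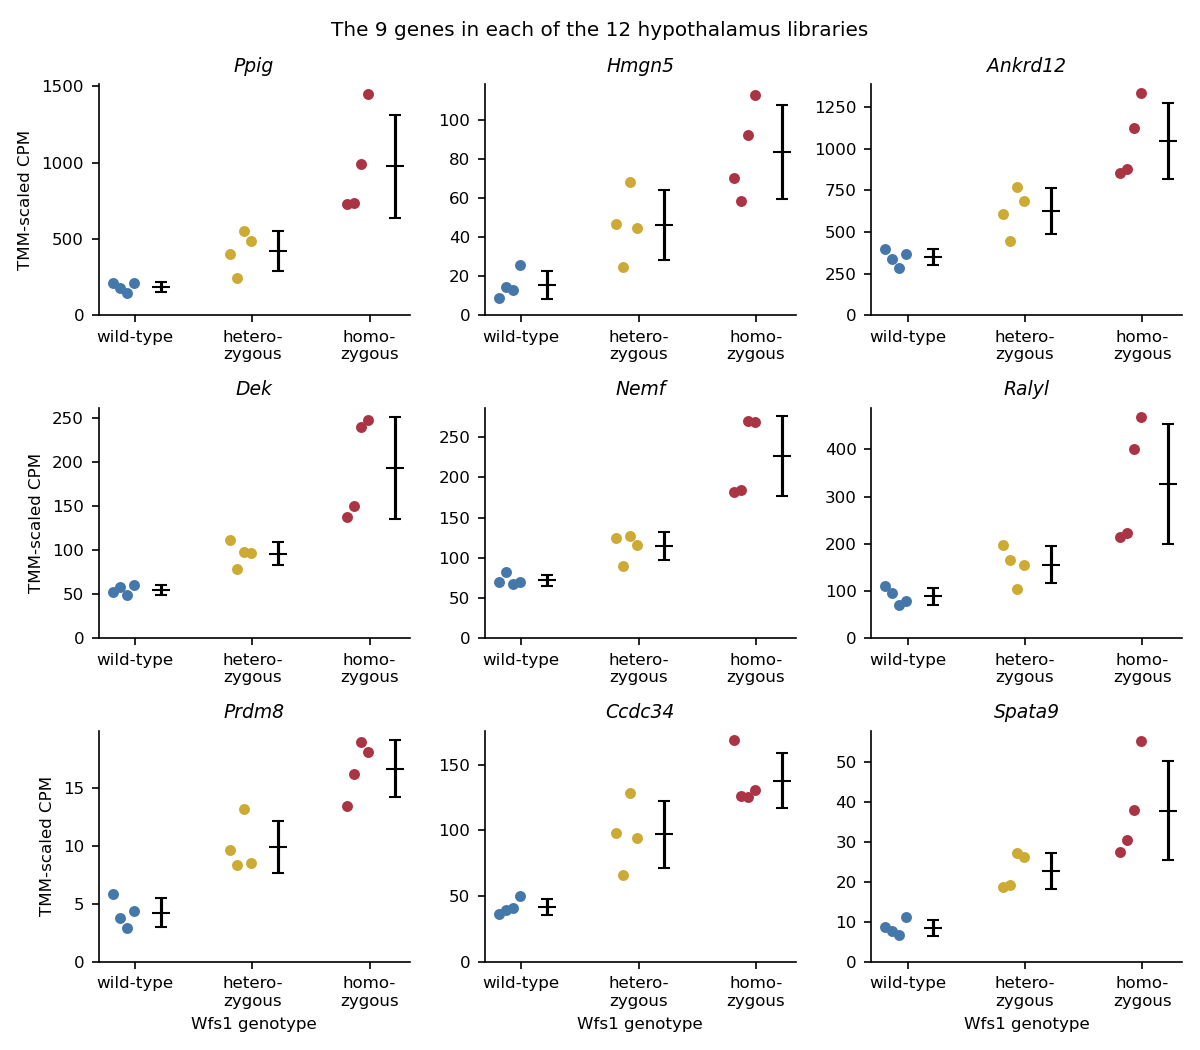
TMM-scaled CPM of each of the 9 genes (vertical axes, linear from 0) in the 12 libraries by Wfs1 genotype (horizontal axes); each point is 1 library, in the order of its replicate number, and the dash with bars is the mean with its SD (n = 4). In every panel the homozygous points lie above the wild-type points, and in the panels of Dek, Nemf and Ralyl homozygous replicates 4 and 5 form a separate high pair.

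Whether the heterozygous level lay midway between the other genotypes is a question that the rising slope does not settle, because in a balanced design the departure from the midpoint is independent of it. The midpoint was taken on the log2 scale, where it is lower than the midpoint of the CPM values themselves. A departure from the latter was not tested. On this log2 scale the heterozygous mean was above the midpoint for 5 genes and below it for 4. The departure was 0.34 for Ccdc34 (95% interval -0.0062 to 0.678), 0.34 for Spata9, 0.33 for Hmgn5, 0.22 for Prdm8 and 0.05 for Ankrd12. It was -0.02 for Ppig, -0.10 for Dek, -0.12 for Ralyl and -0.16 for Nemf (interval -0.470 to 0.147). Of the 9 departures 0 were called by edgeR's quasi-likelihood test with Benjamini-Hochberg adjustment, DESeq2 or limma-voom, and 1 of the 9, Ccdc34, had an unadjusted p under 0.05 in edgeR. The interval of Ccdc34 reaches 0 because the intervals use the 9 residual degrees of freedom alone, while edgeR's p also uses degrees of freedom borrowed over genes. Of all genes 0.00931% were called, which is 1 gene, and 454 had an unadjusted p under 0.05. The 1 gene was Wfs1, 0.83 above its midpoint (adjusted p = 0.0317, edgeR). The intervals of the 9 genes allow departures between -0.551 (Ralyl) and 0.877 (Hmgn5). With homozygous replicates 4 and 5 left out, 8 of the 9 heterozygous means were above the midpoint, 0 were called and 2 had an unadjusted p under 0.05. Without heterozygous replicate 2 as well, all 9 were above it, from 0.09 (Nemf) to 0.73 (Hmgn5). Of these 0 were called and 5 had an unadjusted p under 0.05. The split of 5 above and 4 below thus rests on these libraries. Homozygous replicates 4 and 5 were above their genotype mean for 8 of the 9 genes each, and heterozygous replicate 2 for 1. Leaving them out therefore moves most heterozygous means up against the midpoint. The groups are then unequal, so the departure is no longer independent of the slope.

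Because libraries of the same genotype differed in Rn45s, the relation of each gene to Rn45s could be measured inside genotypes. The genotype means that chose the genes do not enter this fit directly. Rn45s also fell with the number of mutant alleles, so a choice of rising genes could favour genes with this relation. The 9 genes were compared with all genes and not with other rising genes. In a fit with genotype as a factor and log2 Rn45s CPM as a number, 7 of the 9 genes were called, all with a negative coefficient. Of all genes 6.91% were called with a negative and 6.51% with a positive coefficient. The median coefficient of the 9 genes was -0.35 log2 per log2 unit of Rn45s, beside -0.0002 over all genes. Within single genotypes the relation was uneven. In the homozygous group the rank correlation with Rn45s over 4 libraries was between -0.6 and -1 for these 7 genes, but it was 0.4 for Nemf in wild-type, and for Ralyl it was 0 in wild-type and 0.6 in heterozygous libraries. Rn45s and the genes are shares of the same libraries.

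The coefficient was -0.50 for Hmgn5 (SE 0.115, adjusted p = 0.0042, edgeR), -0.47 for Ppig (SE 0.0767, adjusted p = 0.0002), -0.36 for Dek (SE 0.0703, adjusted p = 0.0010) and -0.36 for Spata9 (SE 0.123, adjusted p = 0.0462). It was -0.35 for Ralyl (adjusted p = 0.0134), -0.31 for Ankrd12 (adjusted p = 0.0016) and -0.27 for Nemf (adjusted p = 0.0098). Prdm8 at -0.19 (95% interval -0.577 to 0.206) and Ccdc34 at -0.07 (interval -0.288 to 0.157) were not called. A test of whether these 2 differ from the other 7 was not made.

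Most of the Rn45s variation inside genotypes came from 3 libraries. Without homozygous replicates 4 and 5, 2 of the 9 genes were called, Ppig (-0.68, adjusted p = 0.0066) and Hmgn5 (-0.98, adjusted p = 0.0343), against 0.282% of all genes with a negative call, and 8 of the 9 coefficients were negative. Without heterozygous replicate 2 as well, none of the 9 was called, 1 had an unadjusted p under 0.05 and 7 coefficients were negative, and 2 genes of the whole table were called (652 at an unadjusted p under 0.05). Leaving out single libraries left 4 to 7 of the 9 called, 4 without homozygous replicate 2. DESeq2 called 5 of the 9.

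**Figure D2:**
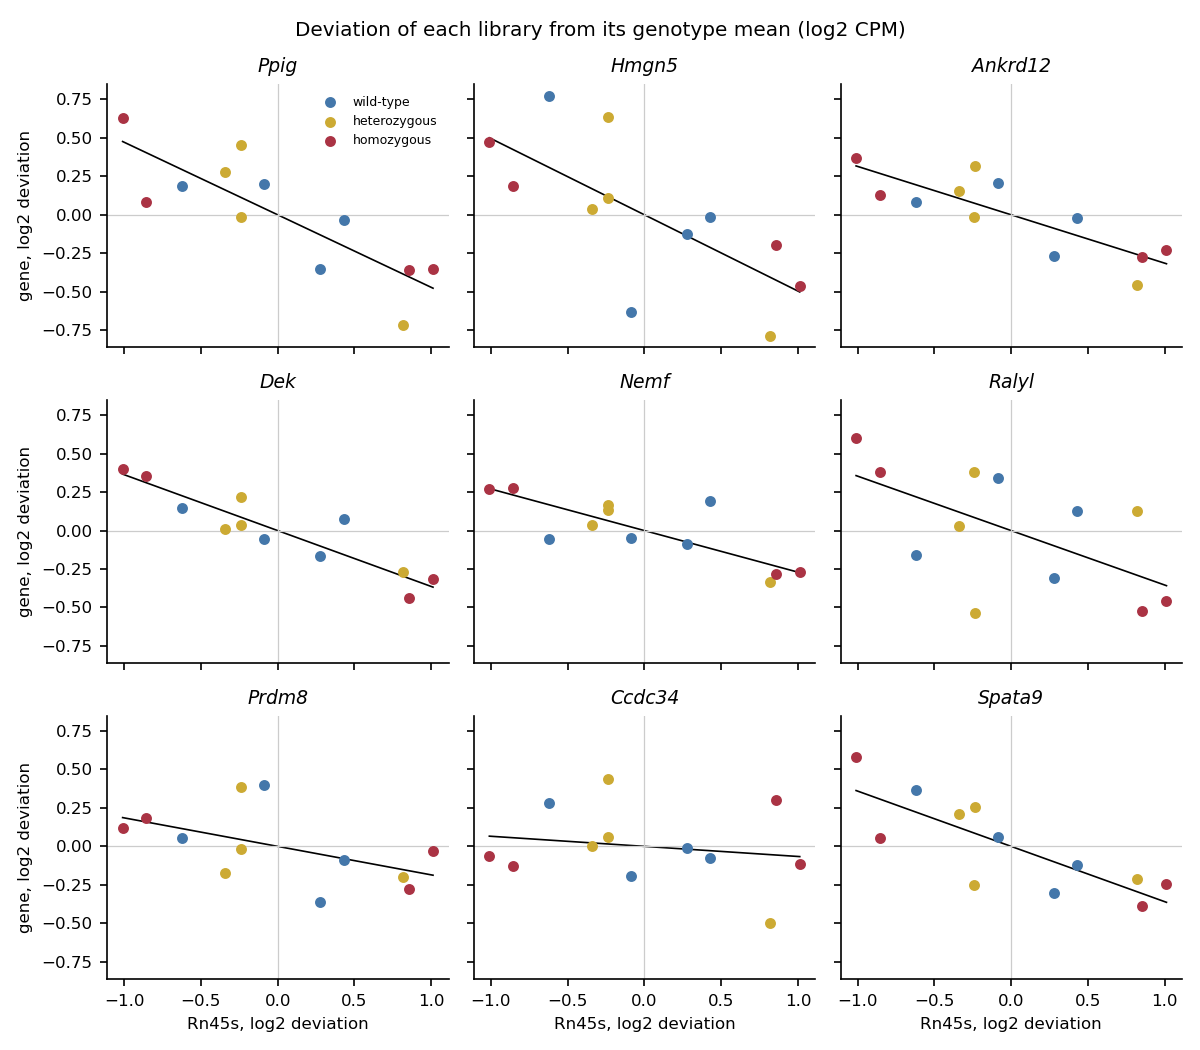
Deviation of each gene's log2 CPM from its genotype mean (vertical axes) against the same deviation of Rn45s (horizontal axes) for the 12 libraries, coloured by genotype; the line has the slope of the fitted coefficient. The points of Dek and Ppig fall from upper left to lower right with slopes of -0.36 and -0.47, those of Ccdc34 lie nearly level at -0.07, and the outermost homozygous points are replicates 4 and 5 on the left and 1 and 2 on the right.

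With log2 Rn45s as a covariate, the difference between homozygous and wild-type libraries was smaller for every one of the 9 genes and stayed positive. It was 0.90 for Ppig, 0.87 for Hmgn5, 0.61 for Ankrd12, 0.66 for Dek, 0.80 for Nemf, 0.72 for Ralyl, 1.39 for Prdm8, 1.53 for Ccdc34 and 0.99 for Spata9 on the log2 scale, which is 36.5% to 88.8% of the difference without the covariate. Ccdc34 and Prdm8 kept the largest values. Genotype and Rn45s are strongly tied in these libraries, so their parts in the differences cannot be told apart. In this fit edgeR called 1 gene of the whole table, Wfs1, which is 0.00931%, and none higher, with 1144 genes at an unadjusted p under 0.05.

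Leaving out homozygous replicates 4 and 5, the libraries lowest in Rn45s, kept the homozygous level above wild-type. The choice of rising genes makes this likely. In Rn45s, homozygous replicates 1 (0.0302%) and 2 (0.0337%) were still below every wild-type library (0.1002% or more). Without homozygous replicates 4 and 5 the homozygous to wild-type log2 fold change was 1.98 for Ppig, 2.02 for Hmgn5, 1.32 for Ankrd12, 1.39 for Dek, 1.35 for Nemf, 1.31 for Ralyl, 1.80 for Prdm8, 1.81 for Ccdc34 and 1.75 for Spata9. The greatest drop was that of Ralyl, from 1.86, and Ccdc34 alone had a higher value without them than with them. Over 22 alternative settings the 9 genes gave 197 fold changes, from 0.61 to 2.79 on the log2 scale, and none was negative. These refits use the same counts of genes chosen for rising, so nothing is read from the sign.

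**Figure D3:**
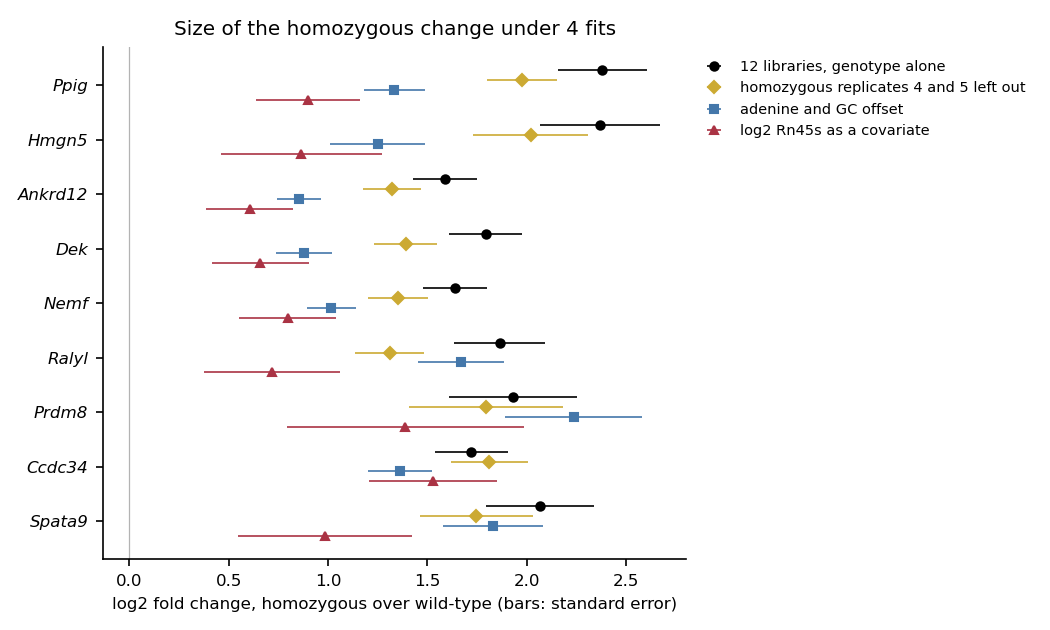
Log2 fold change of homozygous over wild-type libraries (horizontal axis, bars are the standard error) of the 9 genes under 4 fits: all 12 libraries, without homozygous replicates 4 and 5, with an offset for adenine and GC content, and with log2 Rn45s as a covariate. All 36 points lie above 0, the Rn45s covariate gives the lowest value for 8 genes, and for Ccdc34 the offset gives the lowest.

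Over 36 pairs of members the correlation of log2 CPM over the 12 libraries was 0.730 to 0.997 (median 0.931), which mostly carries the genotype differences that chose them. After the genotype means were removed it was -0.539 to 0.987 (median 0.613), positive in 34 pairs and negative in 2. Ppig with Ankrd12 was the closest pair at 0.987 inside genotypes, and Dek with Nemf followed at 0.910. The negative pairs were Ralyl with Ccdc34 at -0.539 and Hmgn5 with Ralyl at -0.017. Over the 9 libraries without homozygous replicates 4 and 5 and heterozygous replicate 2, the values inside genotypes were -0.684 to 0.974 (median 0.162), positive in 29 pairs and negative in 7. Ppig with Ankrd12 was again the closest pair and Ralyl with Ccdc34 the most negative. The median was thus lower without these 3 libraries. The genes compared share the depth and the Rn45s level of each library.

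Outside the set, the genes whose 12-library profile was most like the mean of the 9 were Bptf, a chromatin remodelling subunit (r = 0.990), Tpm4, a tropomyosin (0.989), Tpr, a nuclear pore protein (0.988), Bod1l (0.988) and Gnai1, a G protein subunit (0.986). Inside genotypes they were Zfp612 (0.975), Ccdc88a (0.966) and Zcchc11 (0.961), and over the 9 libraries without the 3 named above the values of these genes were 0.964, 0.762 and 0.833. Gene by gene, the profile closest to Ppig was that of Oxct1 (0.993), to Hmgn5 Il17ra (0.980), to Ankrd12 Gnai1 (0.990), to Ralyl Myo9a (0.978), to Ccdc34 Eif3a (0.979) and to Spata9 Leo1 (0.983). Dek and Nemf had the same closest gene, the synapsin gene Syn1 (0.990 and 0.989). The 12-library values carry the genotype differences that chose the 9 genes. All genes named here came from a search over the genes tested for the highest values, so a high value does not mark a partner.

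The base composition of the coding sequences set 8 of the 9 genes in the upper part of all coding genes. The adenine share was 43.1% for Hmgn5, 40.7% for Ppig, 39.2% for Dek, 36.6% for Ankrd12, 35.3% for Nemf, 34.0% for Ccdc34, 30.6% for Ralyl and 30.4% for Spata9. The median of the 9579 coding genes tested was 25.8%. Hmgn5, Ppig, Dek, Ankrd12 and Nemf lay above the 98th percentile and 6 of the 9 were in the top 10%. Prdm8 was at the other end, with 18.6% adenine and 66.2% GC, at the 4.83 percentile of adenine. The windows printed above show the same contrast.

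This composition went with the calls of all other genes. With the 9 genes left out, the share of genes called higher in homozygous libraries was 6.27% in the 10% of genes with the least coding adenine and 39.6% in the 10% with the most. The share called lower was 20.4% and 1.16% in these groups. The share with a negative call on Rn45s inside genotypes was 3.45% and 20.1%. The shares called higher, without homozygous replicates 4 and 5, were 3.76% and 23.1%, those called lower 7.63% and 1.16%, and those negative on Rn45s 0.104% and 1.89%. Without heterozygous replicate 2 as well they were 3.97% and 24.3%, 9.51% and 1.37%, and 0% and 0%. Within a library, log2 CPM relative to the mean of all libraries changed with each 10 points of adenine by -0.121, -0.247, -0.373 and -0.219 in wild-type replicates 1, 2, 3 and 5. It changed by 0.113, 0.0113, 0.446 and 0.523 in homozygous replicates 1, 2, 4 and 5. In heterozygous replicates 1 to 4 it changed by 0.0169, -0.217, 0.0697 and -0.0037. The wild-type and homozygous libraries did not overlap in this slope, heterozygous replicate 2 lay in the wild-type range, heterozygous replicates 1 and 3 lay above homozygous replicate 2, and homozygous replicates 4 and 5, the lowest in Rn45s, had the highest slopes.

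When adenine and GC content were taken out of each library by an offset, a setting chosen after seeing the data, the homozygous log2 fold change was 1.33 for Ppig, 1.25 for Hmgn5, 0.85 for Ankrd12, 0.88 for Dek, 1.02 for Nemf, 1.36 for Ccdc34, 1.67 for Ralyl and 1.83 for Spata9. All of these were smaller than without the offset. Prdm8, the adenine-poor gene, went from 1.93 to 2.24. The median of all genes was -0.0048 in this fit. The relation to Rn45s was called for 3 of the 9 genes with the offset, Ppig, Hmgn5 and Ralyl, against 5.02% of all genes with a negative call. Why reads of adenine-rich genes differ between these libraries was not tested.

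**Figure D4:**
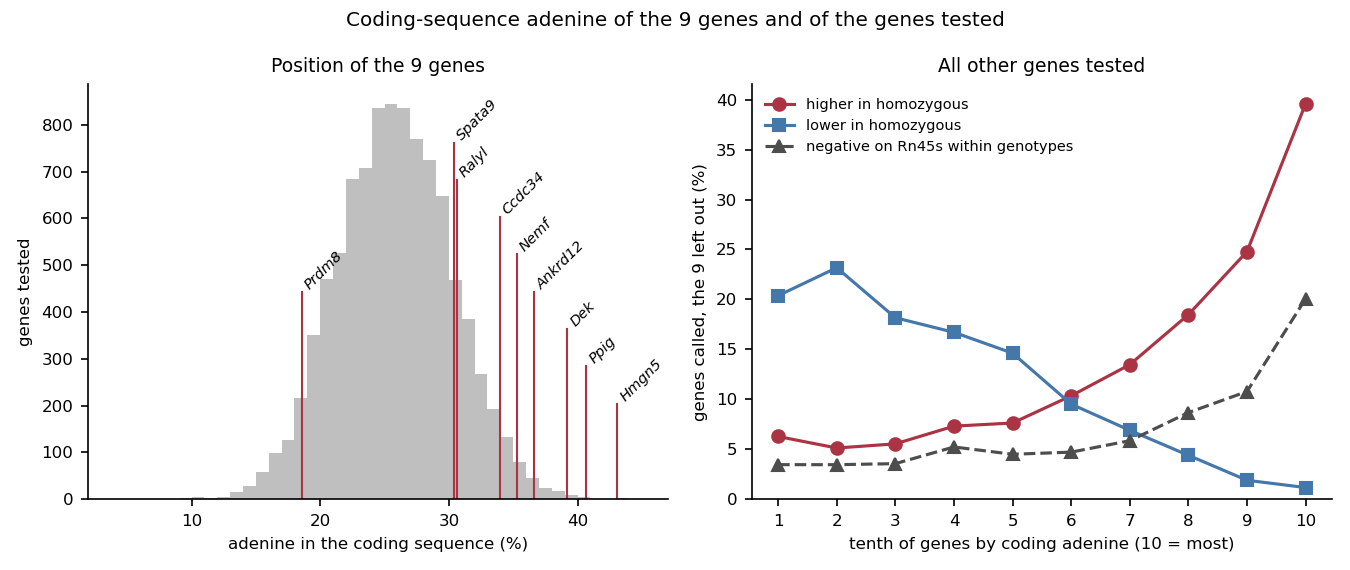
Left, the adenine share of the coding sequence (horizontal axis, percent) of the genes tested (grey, number of genes) with the 9 genes as red lines, whose height only carries the name. Right, the percentage of the other genes called higher or lower in homozygous libraries, or negative on Rn45s inside genotypes, in each of 10 equal groups by coding adenine; the share called higher goes from 6.27% to 39.6%, and all members but Prdm8 sit to the right of the grey peak.

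The promoters of 8 of the 9 genes were matched in RefSeq (GRCm38.p6), each as 250 bases before and 50 after the start. The CCAAT box, searched as CCAAT on both strands, was present in 7 of the 8, against 37.3% of the 10051 promoters of genes tested and 37.4% of all 32851 promoters. Ppig was the one without it. The promoters of Hmgn5 and Ankrd12 are shown because they hold the most matches, with CCAAT (or its reverse complement ATTGG) and the E-box CACGTG in capitals.
Hmgn5, chrX:109013331-109013630, minus strand: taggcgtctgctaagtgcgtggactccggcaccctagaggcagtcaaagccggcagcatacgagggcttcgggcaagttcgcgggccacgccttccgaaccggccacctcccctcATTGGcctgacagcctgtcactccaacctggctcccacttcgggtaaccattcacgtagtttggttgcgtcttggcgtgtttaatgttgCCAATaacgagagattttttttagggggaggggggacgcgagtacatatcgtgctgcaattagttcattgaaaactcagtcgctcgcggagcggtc
Ankrd12, chr17:66076997-66077296, minus strand: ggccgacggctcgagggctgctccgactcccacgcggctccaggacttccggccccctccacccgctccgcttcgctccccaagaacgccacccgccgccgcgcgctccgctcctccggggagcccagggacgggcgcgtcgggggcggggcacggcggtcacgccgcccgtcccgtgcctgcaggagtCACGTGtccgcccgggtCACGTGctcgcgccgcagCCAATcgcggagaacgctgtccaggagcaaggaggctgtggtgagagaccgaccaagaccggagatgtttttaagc
The Hmgn5 promoter holds 2 CCAAT matches, 1 on each strand, and the Ankrd12 promoter holds 1 CCAAT and 2 E-boxes. The E-box was in 1 of the 8 promoters, against 10.05% of those of genes tested. None of the 8 held TATAAA (6.80% of promoters of genes tested), the CRE palindrome TGACGTCA (3.07%), the element TGACGTG (2.83%), the ER stress response element (ERSE, 0.139%) or the NRF1 motif (1.99%), all searched on both strands. CCAAT is also the beginning of the ER stress response element. Spata9 had the fewest CpG pairs of the 8 promoters, with an observed to expected ratio of 0.0685, beside a median of 0.757 for genes tested. A match or its absence describes the letters in this window only.

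The genes lie on 7 chromosomes (mm10, GENCODE M21). Ppig is at chr2:69722545-69754012 and Ccdc34 at chr2:110017817-110173360, both on the plus strand. Dek is at chr13:47084775-47106201 on the minus and Spata9 at chr13:75967150-75998972 on the plus strand. Hmgn5 is at chrX:109004534-109013404 (minus), Ankrd12 at chr17:65965698-66077089 (minus), Nemf at chr12:69310522-69357165 (minus), Ralyl at chr3:13471655-14182287 (plus) and Prdm8 at chr5:98167198-98188991 (plus).

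Counts of 4 of the 9 genes could hold reads of an overlapping gene, since the strand of the counting is not given in the sources used here. Exons of Dek share 505 bases with Kdm1b on the opposite strand, 15.9% of the Dek exon bases. Kdm1b differed by 0.39 on the log2 scale between homozygous and wild-type (SE 0.326, adjusted p = 0.406, edgeR). Exons of Nemf share 166 bases, 1.57%, with Klhdc2 on the opposite strand, and Klhdc2 was higher by 0.51 (SE 0.118, adjusted p = 0.0032, edgeR). Ralyl shares 1133 exon bases (30.9%) with 1 and 175 (4.77%) with the other of 2 annotated loci named Gm2464, and Prdm8 shares 1411 (29.1%) with A730035I17Rik, and none of these partners has a line in the table used here.

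Processed pseudogenes with at least 90% identity over at least 100 bases were found for 3 of the 9. They were Gm20768 on chromosome 5 for Ppig (93.7% over 947 bases), Gm11914 on chromosome 4 (99.4% over 507 bases) and Gm15807 on chromosome 16 (90.8% over 771 bases) for Hmgn5, and Gm9517 on chromosome 12 for Ankrd12 (99.4% over 648 bases). None has a line in the table used here, so the counts of Ppig, Hmgn5 and Ankrd12 are uncertain as far as the authors' counting assigned reads between copies. Ccdc34 and Spata9 had neither a copy nor an exon overlap by these rules.

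Genes that share a family, a setting or only a name with a member were read from lists by the homozygous against wild-type test. In that test 13.7% of all genes were called higher, 11.6% lower, and the median log2 fold change was -0.03. The number called lower (1248) was 782 without wild-type replicate 3 and 534 without homozygous replicates 4 and 5, and the number called higher (1475) was 810 without the latter. Counts of the lists are set beside all genes here and not beside genes of like coding adenine. Among 31 tested RS-domain proteins of nuclear speckles and their kinases, the surroundings of Ppig, 13 were higher and 1 lower, with a median of 0.36. The 4 with the smallest p were Pnn (1.59, SE 0.171), Luc7l3 (1.74, SE 0.195), Prpf38b (1.86, SE 0.242) and Rbm25 (1.27, SE 0.198), all with roles in splicing. The 1 lower was Srsf6 (-0.78, SE 0.163). With homozygous replicates 4 and 5 left out, 11 were higher and 1 lower. Among 10 other cyclophilins 2 were higher and 0 lower, with a median of 0.09. They were Cwc27 (1.15), a spliceosomal cyclophilin, and Nktr (0.42), which like Ppig has an arginine-serine tail and whose call ended without homozygous replicate 1 (adjusted p = 0.0745, edgeR) and with the offset (0.12). Ppil4 (0.56) and Ppib (-0.53) were not called.

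Among 18 histone chaperones and linker histones, the setting of Dek, 9 were higher and 2 lower, with a median of 0.42. Npm1 (2.49, SE 0.207), a nucleolar chaperone, had the largest slope of all genes tested. Atrx (1.09), Ncl (0.98) and Anp32b (1.12) were the next by p. The 2 lower were the histone chaperone genes Hira (-0.70, SE 0.237) and Daxx (-0.67, SE 0.239), so the list did not move in 1 direction. Without homozygous replicates 4 and 5, 8 were higher and 0 lower. Of 5 other high mobility group genes tested 1, Hmgn1 (1.18), was higher, and it was at 0.77 without homozygous replicates 4 and 5 (adjusted p = 0.0887, edgeR). Hmgn3 (0.26), the other HMGN gene tested, Hmgxb3 (-0.44) and Hmgxb4 (0.21) were not called.

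Among 13 nuclear receptor coregulators, the setting of Ankrd12, 3 were higher and 1 lower, with a median of 0.05. Ankrd11, the nearest relative of Ankrd12, was higher by 0.68, the coactivator Ncoa6 by 0.49 and the corepressor Ncor1 by 0.36, and the deacetylase Hdac4 was at -0.62. The calls of Ncor1 and Hdac4 ended without homozygous replicates 4 and 5 (adjusted p = 0.156 and 0.126, edgeR). Among 16 genes of ribosome rescue and quality control, the setting of Nemf, 1 was higher and 3 lower, with a median of -0.03, the same as that of all genes. Ltn1, the ligase that works with Nemf, was higher by 0.59, and Tcf25 (-0.46), another subunit of that complex, Gtpbp1 (-1.01) and Nploc4 (-0.63) were lower. Without homozygous replicates 4 and 5 none of these 4 was called (adjusted p = 0.0507 for Ltn1 and 0.0770 to 0.256 for the others, edgeR).

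The remaining lists held few calls. Of the 2 relatives of Ralyl, Raly (-0.31) and Hnrnpc (-0.10), 0 were called by edgeR and 0 had an unadjusted p under 0.05. Of 6 tested PRDM genes other than Prdm8, 0 were called and 3 had an unadjusted p under 0.05, with Prdm10 (-0.99), Prdm16 (-0.59) and Prdm2 (-0.34) the first by p. Of 13 intraflagellar transport genes, the setting of Ccdc34, 2 were higher and 0 lower, with a median of 0.24. They were Ift74 (1.26), whose value with the adenine and GC offset was 0.25 (adjusted p = 0.364, edgeR), and Ift20 (0.67). Ttc21b (0.49) and Ift88 (0.47) were not called. Of 7 genes that share only the Spata name with Spata9, 0 were higher and Spata2 was lower at -1.29, at -0.90 without homozygous replicates 4 and 5 (adjusted p = 0.0975, edgeR). Spata5 (0.59), Spata7 (-0.39) and Spata1 (0.72) were not called. With log2 Rn45s as a covariate no gene of any of these lists was called.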

How the data were processed

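Hypothalamus RNA of 12 mice was turned into cDNA from 50 ng with a NuGEN Ovation kit and read as pairs of 75 and 35 bp on a SOLiD sequencer, per the labels' protocols. The values deposited by the authors are raw counts, 1 line per gene symbol. The build was mm10, per the submitters' processing notes, while aligner, counter, annotation and strand were not given in the sources used here. In all, 24020 genes are listed, 6133 without a count, and 58 line numbers are absent. Column names gave the genotype and number of each library. The homozygous column 5 matches no label by number and was placed in its group only by the genotype prefix of its column name. The label of homozygous replicate 3 has no column of that number.

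Tests on the counts used edgeR 4.0.16 under R 4.3.3 (TMM factors 0.908 to 1.08, filterByExpr with a minimum count of 10, quasi-likelihood F tests over all 12 libraries, Benjamini-Hochberg over all genes, called at adjusted p under 0.05). A total of 10737 genes were tested, 10736 in the Rn45s fits. Log2 CPM used a prior count of 2. Intervals of fitted values are 95% intervals. They give the uncertainty of the fitted value, estimated from the spread between libraries, and not the range of single libraries. The adenine and GC offset was a quadratic fit per library on the coding adenine and GC percent of each gene. The fits were tested on simulated data. DESeq2 1.42.0 and limma 3.58.1 were alternatives. Coding sequences came from the GENCODE M21 transcript with the longest coding sequence, copies from BLAST+ 2.17.0 and promoters from RefSeq.

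The 9 genes and the gene lists were chosen with earlier results of these data known. Named were the 9 genes, in each list the 4 (or fewer) lowest p-values, the 5 and 3 most similar genes to the mean profile and 1 per gene, provisional gene models passed over. Hira, Daxx, Srsf6 and Hmgn3 were named outside this rule. A few genes that this rule names are not reported here.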

Additional observations from a re-analysis of the deposited data

Results flagged for a closer look

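Of 30 groups of 4 libraries examined (the 9 genes and Rn45s in 3 genotypes), 3 held a library set apart from the rest by Dixon's criterion, and chance alone sets apart about 1 in 20 groups. Nemf was at 82.8 CPM in wild-type replicate 2, and the nearest of the other wild-type libraries was at 69.7 CPM. Ccdc34 was at 169 CPM in homozygous replicate 1, and the nearest of the other homozygous libraries was at 131 CPM. Rn45s took 0.0811% of the counts in heterozygous replicate 2, and the nearest of the other heterozygous libraries was at 0.0380%.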

How the results depend on the processing

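With the replicate number as a block, the slope on mutant alleles called 1269 genes (2757 without it), homozygous against wild-type 1308 (754 higher, 554 lower; 2723 without it, 1475 higher and 1248 lower, or 1152 and 830 with the adenine and GC offset), the midpoint 3 (1 without it) and the Rn45s relation 385 (1441 without it), with 2 of the 9 genes (Dek and Ralyl) in place of 7. Same-numbered libraries correlated between -0.265 and 0.337 in their deviations from the genotype means over 8 pairs. Libraries of different numbers were not compared, so whether the numbers pair the samples cannot be told from these values. Homozygous column 5 has no label with its number and was not compared. Without homozygous replicates 4 and 5 the 4 counts were 1582, 1344, 0 and 44, with 2 of the 9 genes called for Rn45s. Without heterozygous replicate 2 as well, a setting chosen after seeing the data, they were 1678, 1534, 6 and 2, with 0 of the 9. Leaving out single libraries gave 1936 to 2942, 1856 to 3076, 0 to 1 and 539 to 1898 genes, and 4 to 7 of the 9. The adenine and GC offset, also chosen after seeing the data, gave 719 genes and 3 of the 9 for Rn45s. No filter on low counts gave 11 genes for the midpoint and limma-voom 0, and with log2 Rn45s as a covariate 1 gene was called between homozygous and wild-type. The Rn45s coefficient changed sign for Ccdc34 with the block (0.055) and without heterozygous replicate 2 (0.052; -0.17 to 0.052 over single omissions), for Ralyl when homozygous replicates 4 and 5 were omitted (0.096) or those 2 plus heterozygous replicate 2 (0.076), and for Nemf in the latter setting (0.155); the cause was not tested. Single omissions ended the Rn45s call of Spata9 in 8 settings (adjusted p 0.053 to 0.307), of Ralyl without homozygous replicates 1, 2 or 5 (0.083 to 0.144) and of Nemf without homozygous replicate 2 (0.064), all by edgeR; DESeq2 ended those of Ralyl (0.132) and Spata9 (0.071). A minimum mean of 10 CPM gave no fold change for Prdm8, which rests on 4 to 8 reads per wild-type library.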
